A study of Equus caballus with 20 samples.

Results

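Extracellular vesicles from the follicular fluid of mares were compared between preovulatory follicles of 30 to 35 mm and predeviation follicles of 18 to 20 mm. Each of the 2 stages held 4 small RNA libraries, and the comparison covered the 227 miRNAs detected, with a value above 0, in at least 4 of these 8 libraries, out of 686 miRNA names in the table. The animals were 19 mares, 8 to 14 years old, sampled in the ovulatory season with no hormone or other agent named in the labels. Follicles of at least 6 mm were ablated on day 10 or 11 of the cycle to start a new follicular wave in every mare. Fluid was aspirated through the vaginal wall from follicles that looked healthy and had grown for at least 3 days. Deviation (22 to 25 mm), postdeviation (26 to 29 mm) and impending ovulation, which carries no diameter in the labels, supplied the other 12 of the 20 libraries. Vesicles were pelleted by ultracentrifugation and not sorted by cell of origin, so the labels give no source cell, and no miRNA in the table defines a vesicle. In such a mixture, fewer vesicles from a cell type and less of a miRNA per vesicle cannot be told apart.

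A follicle is lined by granulosa cells, surrounded by theca cells, and filled with fluid that receives vesicles from both as well as from plasma. In the mare a single follicle of the wave becomes dominant at deviation, while the others regress, and the dominant follicle then grows to the preovulatory size and acquires receptors for luteinizing hormone (LH). MiRNAs are short RNAs that lower the output of messenger RNAs matching their seed, and vesicles can carry them between cells.

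The 8 libraries held between 27131 (preovulatory 3) and 110130 (predeviation 2) recovered reads. Values are scaled reads, that is, reads multiplied by a factor per library, and 1 read was worth between 7.04 and 36.5 scaled reads. The sum of values was lower in every preovulatory library (774632 to 990396) than in every predeviation library (1078319 to 1778185). The 10 most abundant miRNAs held 65.4% ± 3.15 of the sum at preovulatory and 77.6% ± 2.62 at predeviation (SD, n = 4), again without overlap. Both differences had an exact two-sided permutation p of 0.0286, the smallest that 70 arrangements allow, and 0.0571 after adjustment over 4 library measures, so neither passed. Numbers of detected miRNAs were 222 ± 42.6 and 215 ± 15.1 (exact permutation p = 0.83), and 195 ± 23.9 and 181 ± 9.31 (p = 0.343) when each library was thinned to 27131 reads. Predeviation 4 stood apart, with miR-148a making up 46.6% of its sum. It also differed in other miRNAs, such as miR-100 (70815 scaled reads against 4178 to 11086 in the other predeviation libraries). MiR-409-3p was at 22996 against 2144 to 7194, and miR-21 at 46810 against 194377 to 321671. The chi-square per degree of freedom of its reads was 166 to 245 with the other predeviation libraries, and 31.4 to 62 among those. Preovulatory 1 and 4 stood apart as a pair: their log2 values over the 227 miRNAs had a Pearson r of 0.920, against 0.736 to 0.842 for the other pairs of preovulatory libraries and 0.780 to 0.874 among predeviation libraries, as a description across miRNAs within pairs of libraries. They were not the same library, with a chi-square per degree of freedom of 42.9 between their reads. Preovulatory 2 and 3 had 36.4, and pairs that joined 1 library of each set had 105 to 167. Preovulatory 1 and 4 also had more recovered reads (105466 and 110062) than preovulatory 2 and 3 (65120 and 27131), and more detected miRNAs (253 and 264 against 191 and 180). Results are also given without preovulatory 1 and 4.

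Preovulatory vesicles held more of 8 miRNAs and less of 5 than predeviation vesicles at a limma adjusted p under 0.05. Those that rose were miR-485-3p and miR-323-3p of the imprinted DLK1-DIO3 locus, miR-483 of the IGF2 gene, miR-92a of the miR-17-92 cluster, which promotes growth, and miR-22, miR-128, miR-197 and miR-187. Those that fell were miR-148a, the most abundant miRNA of the vesicles, the epithelial miR-200b and miR-200c, miR-146b-5p of the NF-kB feedback in immune cells, and the p53-induced miR-34b-5p. The 13 calls were 5.73% of the 227 miRNAs tested (3.52% higher, 2.2% lower), and 33 had an unadjusted p under 0.05. With values rescaled to equal library totals, 15 miRNAs passed as higher and 1 as lower, miR-34b-5p, which met the detection filter through predeviation alone. The other falls named here then did not pass (limma adjusted p from 0.0823 to 0.0998). The median log2 change of all tested miRNAs went from -0.06 to 0.38. Directions below are therefore relative to the deposited scale.

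**Figure D1:**
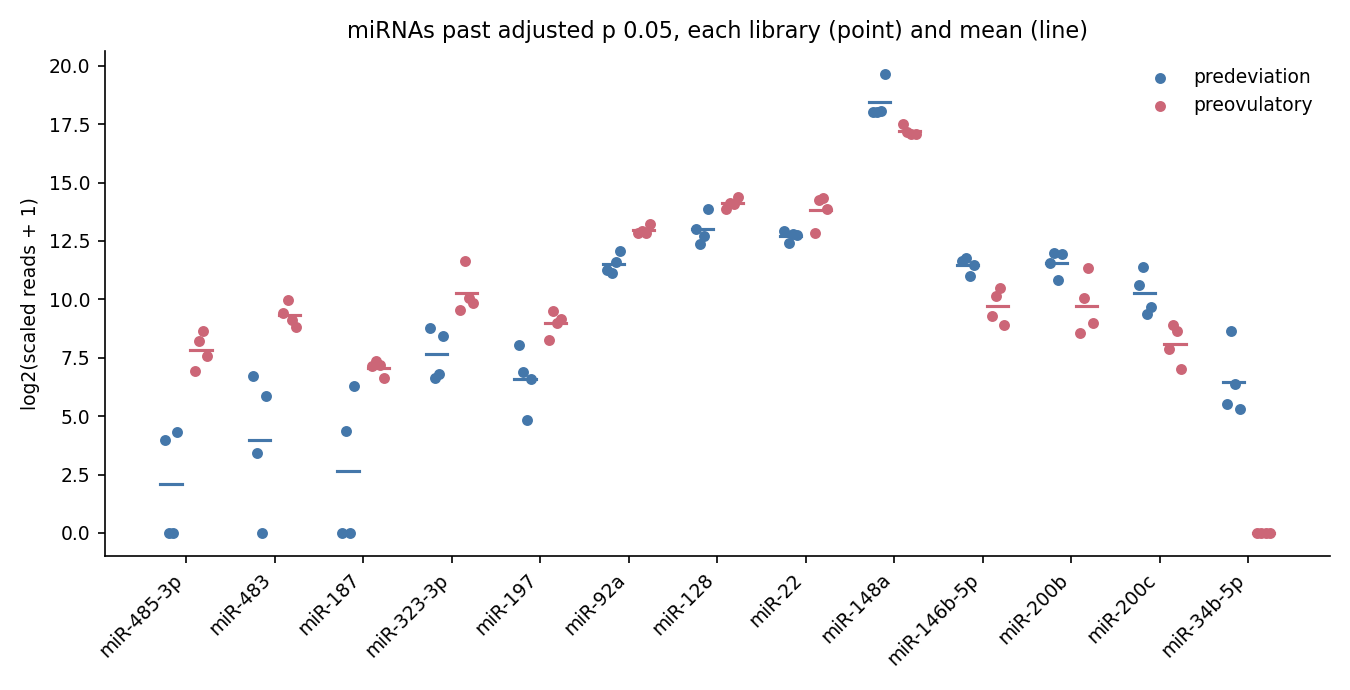
Scaled reads of the 13 miRNAs past the threshold on a log2(value + 1) axis, with 1 point per library and a line at the mean of the 4 log2 values of predeviation (blue) or preovulatory (red) follicles. The groups do not overlap for 10 of the 13, while miR-128, miR-22 and miR-200b have 1 preovulatory library inside the predeviation range.

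Imprinted regions that are active in fetal growth supplied 3 of the 8 rises, and the DLK1-DIO3 locus alone held 29 of the 227 miRNAs tested. The median log2 change of that locus was -0.03, against -0.06 over all 227. MiR-483 lies in an intron of IGF2, the gene of a growth factor. Its level at predeviation was 103, 9.79, 0 and 57.1 scaled reads in libraries 1 to 4, and at preovulatory 678, 1014, 548 and 450. All 4 preovulatory libraries lay above all 4 predeviation libraries, with means of 673 ± 246 and 42.5 ± 47.5 (SD, n = 4), a 15.8-fold ratio of the means. The log2 change on the log2(value + 1) scale was 5.33 ± 1.01 (SE, limma adjusted p = 0.00209), a larger fold than the ratio of the means, which was itself 30.2 without predeviation 1. The fitted value depended on single predeviation libraries, on the pseudocount and on the method. It was 4.0 without predeviation 3, 6.23 without predeviation 1, 5.95 without predeviation 4, 4.22 with a pseudocount of 10 and 3.89 with edgeR.

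MiR-485-3p comes from the maternally expressed miRNA cluster of the DLK1-DIO3 locus. It was at 14.7, 0, 0 and 19.0 scaled reads at predeviation, that is 2 reads in all, and at 123, 294, 402 and 190 at preovulatory, or 73 reads. The groups were apart, and the depth-adjusted ratio of reads was 26.3, with a counting interval (95%) of 7.01 to 221. The limma adjusted p was 0.00209 (fitted log2 5.77 ± 1.08), and the fitted value ranged from 5.08 to 6.52 when a predeviation library was left out and was 3.87 with a pseudocount of 10. Its other arm, miR-485-5p, had a mean of 1009 ± 950 at predeviation and 626 ± 209 at preovulatory, and its log2 change was -0.30 ± 0.58 (limma adjusted p = 0.890). The arms of that hairpin thus had fitted changes of opposite sign, as in 9 of the 19 hairpins with both arms among the 227, while the other 10 had the same sign.

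MiR-323-3p, from the same DLK1-DIO3 cluster, was at 442, 97.9, 110 and 343 scaled reads at predeviation and at 735, 3204, 1059 and 922 at preovulatory. Preovulatory 2 was the highest by far, and even the lowest preovulatory library exceeded the highest of predeviation. The means were 248 ± 172 and 1480 ± 1157 (SD, n = 4; log2 2.61 ± 0.57, limma adjusted p = 0.00828). Without preovulatory 2 the ratio of the means was 3.65 instead of 5.96. Of the 29 measured members of the locus, miR-485-3p and miR-323-3p (2) passed as higher and 0 as lower, 14 had a fitted value above 0, and the median log2 change was -0.03 against -0.06 over all 227 miRNAs. Among them miR-370 was at 216 ± 102 and 487 ± 134 without overlap (log2 1.24 ± 0.51, limma adjusted p = 0.197), and the abundant miR-409-3p was at 8943 and 6365 (log2 0.08, limma adjusted p = 0.974).

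Among abundant miRNAs, miR-92a had the smallest p. This member of the miR-17-92 cluster, which promotes proliferation, was at 2447, 2252, 3106 and 4340 scaled reads at predeviation and at 7386, 7805, 7301 and 9628 at preovulatory. The preovulatory libraries were close to each other and all above predeviation, with means of 8030 ± 1088 and 3036 ± 943 (SD, n = 4; log2 1.44 ± 0.25, limma adjusted p = 0.00209). MiR-128, a brain-enriched miRNA, was at 8241, 5297, 6680 and 15039 at predeviation and at 14845, 17755, 17449 and 21452 at preovulatory. Here 3 of 4 preovulatory libraries exceeded all of predeviation, since predeviation 4 was as high as preovulatory 1 (log2 1.12 ± 0.30, limma adjusted p = 0.0327). MiR-22 was at 7784, 5522, 7175 and 6872 at predeviation and at 7369, 19563, 20807 and 14935 at preovulatory. Preovulatory 1 was inside the predeviation range and the other 3 were well above it (log2 1.10 ± 0.31, limma adjusted p = 0.0344).

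A pair of scarcer miRNAs completed the rises. MiR-197 was at 265, 117, 27.5 and 95.2 scaled reads at predeviation and at 302, 720, 511 and 563 at preovulatory, with the groups apart (means 126 ± 100 and 524 ± 173, log2 2.38 ± 0.66, limma adjusted p = 0.0344). Without predeviation 3, its lowest library, the log2 change was 1.79, and without predeviation 1, its highest, the ratio of the means was 6.55 instead of 4.15. MiR-187 was at 0, 19.6, 0 and 76.1 at predeviation, 6 reads in all, and at 139, 162, 146 and 98.5 at preovulatory, 46 reads. The groups were apart, with a 5.69-fold ratio of the means, or 20.9-fold without predeviation 4 (log2 4.42 ± 1.28, limma adjusted p = 0.0415). This was the least stable call, kept in 6 of 16 alternative settings and without 6 of the 20 libraries (highest adjusted p 0.196), and its log2 change was 2.42 with edgeR, 2.54 with DESeq2, 2.68 with a pseudocount of 10, 3.53 without predeviation 1 or 3, 4.99 without predeviation 2 and 5.62 without predeviation 4.

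**Figure D2:**
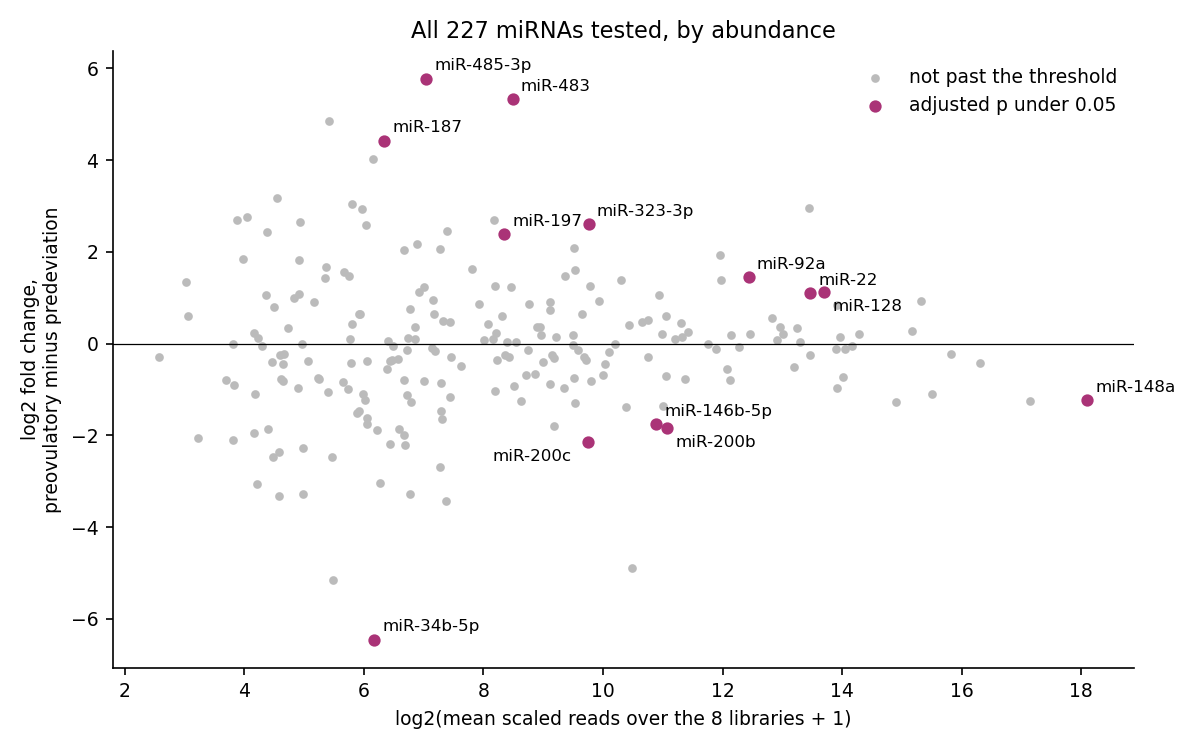
Log2 fold change of each of the 227 miRNAs (preovulatory minus predeviation, fitted on log2(scaled reads + 1)) against the log2 mean over the 8 libraries, with the 13 past the threshold labelled. Changes past the threshold reach from scarce miRNAs such as miR-187 to miR-148a at the far right, and scarce miRNAs scatter more widely.

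Of the 5 that fell, miR-148a had the highest level. It was at 269572, 264904, 276040 and 828709 scaled reads at predeviation and at 188836, 145935, 139410 and 137680 at preovulatory. The first 3 predeviation libraries were nearly equal, predeviation 4 was about 3 times as high, and all 4 preovulatory libraries were below them (means 409806 ± 279306 and 152965 ± 24177 (SD, n = 4), log2 -1.24 ± 0.34, limma adjusted p = 0.0327). Without predeviation 4 the log2 change was -0.83 (limma adjusted p = 0.0459), and the ratio of the means was 1.77 instead of 2.68. With equal library totals it was -0.76 (limma adjusted p = 0.0998). With quantile normalization it was 0, because the ranks of miR-148a were the same in both groups. It ranked below miR-21 in predeviation 3 (276040 against 321671 scaled reads) and in preovulatory 3 (139410 against 216068). In the other libraries of these 2 stages it had the top rank. Its relative miR-148b-3p, with the same seed in mammals, was at 1862 and 2181 (log2 0.22 ± 0.31, limma adjusted p = 0.856).

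The miR-200 family keeps epithelial cells epithelial by repressing ZEB1 and ZEB2, and all 5 measured members had lower fitted values at preovulatory, also under the other scalings. MiR-200b was at 2978, 4044, 1814 and 3902 scaled reads at predeviation and at 376, 1073, 2592 and 500 at preovulatory (log2 -1.84 ± 0.49, limma adjusted p = 0.0327). Preovulatory 3 lay inside the predeviation range and the other 3 below it. MiR-200c was at 1563, 2634, 660 and 819 at predeviation and at 237, 470, 402 and 127 at preovulatory, with the groups apart (log2 -2.15 ± 0.60, limma adjusted p = 0.0344). These 2 of 5 passed, where 2.2% of all 227 passed as lower and 119 had lower fitted values, and the median log2 change of the family was -1.36. With equal library totals neither passed (limma adjusted p = 0.0823 for miR-200b and 0.0871 for miR-200c). MiR-200b also did not pass with edgeR (adjusted p = 0.1 on the deposited scale and 0.0903 with TMM). MiR-200a, from the cluster of miR-200b, was at 2709 ± 1208 and 1376 ± 1253 (log2 -1.36 ± 0.57, limma adjusted p = 0.197), miR-429 at 156 and 64.0 (0.731) and miR-141 at 359 and 221 (0.762). Preovulatory 1 and 4 were the lowest libraries for both called members. Leaving both out gave a median of -0.78 for the family, -0.87 for miR-200b (limma adjusted p = 0.437) and -1.49 for miR-200c (0.312).

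MiR-34b and miR-34c are transcribed together, are induced by p53, and are listed here in 1 family with miR-449a of multiciliated epithelia. MiR-34b-5p was at 44.2, 401, 82.5 and 38.1 scaled reads at predeviation, 49 reads in all, and had 0 reads in every preovulatory library. It was at least 22.7-fold lower, taking 3 reads summed over the 4 libraries as the floor (limma adjusted p = 0.0266). Of those reads 41 came from predeviation 2. Without that library 8 reads remained, the bound was 6.12-fold and the call was lost (0.0732); without preovulatory 1 or 4 the bound was 15.0-fold or 13.7-fold. Of the 227 miRNAs it was the 1 at 0 in all 4 libraries of either of these 2 stages, and it entered the comparison through predeviation alone. A miRNA at 0 throughout preovulatory can enter only as lower, so its p and its call in the lists are descriptions. MiR-34c was at 1445, 8303, 990 and 476 at predeviation and at 32.7, 44.1, 110 and 42.2 at preovulatory. The groups were far apart, with predeviation 2 the highest. In limma it did not pass (log2 -4.89 ± 1.74, adjusted p = 0.115), while edgeR (adjusted p = 0.0189) and DESeq2 (3.08e-05) passed it. MiR-449a had 1 read at preovulatory against 27 (37.5-fold lower, counting interval 6.19 to 1537, limma adjusted p = 0.0713), and miR-34b-3p was at 172 ± 137 and 43.8 ± 68.7 (limma adjusted p = 0.411). MiR-34a, encoded elsewhere, was at 56.8 ± 41.0 and 89.8 ± 106 (limma adjusted p = 0.751), so the ratio of its means and its fitted log2 change of -1.89 differed in sign, and edgeR put the change at 0.70. The list of these 5 had 1 member past the threshold and a median log2 change of -4.89, and the summed level of its 6 names was 44.1 to 256 at preovulatory against 609 to 9302 at predeviation.

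MiR-146b-5p, induced by NF-kB and acting back on its signalling, was at 3228, 3447, 2062 and 2798 scaled reads at predeviation and at 621, 1146, 1424 and 479 at preovulatory. The groups were apart (log2 -1.76 ± 0.45, limma adjusted p = 0.0296). Its near-identical relative miR-146a was at 5620 ± 1220 and 3333 ± 1089, also without overlap (log2 -0.80 ± 0.29, limma adjusted p = 0.128). Names this close may share reads, and no source used here says how reads were divided between them. Leaving out preovulatory 1 and 4 gave -1.15 for miR-146b-5p on the log2 scale (limma adjusted p = 0.304), and equal library totals gave -1.28 (0.0823).

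Groups did not overlap for 12 miRNAs that were higher (5.29% of those tested) and 8 that were lower (3.52%), or 8.81% in all, and 10 of these 20 were past the threshold. Of the other 10, not named so far were miR-615-3p, from the HOXC5 locus, at 334 ± 129 and 979 ± 614 (log2 1.47 ± 0.47, limma adjusted p = 0.0713), and miR-326 with 22 reads against 3 (5.27-fold, counting interval 1.58 to 27.5, limma adjusted p = 0.0860). MiR-199a-5p was at 517 and 1249 (limma adjusted p = 0.197), miR-98 of the let-7 family at 173 and 409 (0.370), miR-151-5p at 38.3 and 7.32 (0.384) and miR-1301 at 18.8 and 90.4 (0.465). These last miRNAs were singled out after their values were seen. Precision was limited: 95% intervals of the log2 changes had a median half-width of 2.36 among the 227 miRNAs and of 1.21 among the 138 detected in all 8 libraries.

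MiR-92a, miR-483, miR-485-3p and miR-323-3p passed without any single library of the 20. The other 9 calls each depended on at least 1 library. All 13 depended on the libraries of the other stages in the fit: with only the 2 compared stages fitted, these 4 had limma adjusted p from 0.0567 to 0.0629, the other 9 did not pass either, and miR-34c was the 1 call (lower, 0.0185). Without preovulatory 4 only those 4 passed, and the other 9 had limma adjusted p from 0.0751 (miR-34b-5p) to 0.143 (miR-200c). Without predeviation 2, 5 passed, and miR-128, miR-22, miR-146b-5p, miR-197, miR-200b, miR-200c, miR-187 and miR-34b-5p had adjusted p from 0.0531 to 0.165. Without predeviation 1, 7 passed, and miR-128, miR-22, miR-146b-5p, miR-200b, miR-200c and miR-187 did not (0.0627 to 0.194). MiR-128, miR-22, miR-197 and miR-187 were lost without predeviation 3 (0.0712 to 0.136) or preovulatory 2 (0.0646 to 0.135), with miR-148a (0.0727) also lost without preovulatory 2. MiR-148a, miR-197, miR-22 and miR-187 were lost without preovulatory 3 (0.0608 to 0.121), miR-146b-5p, miR-200b, miR-200c and miR-187 without preovulatory 1 (0.0779 to 0.117), and miR-200b without predeviation 4 (0.0541). MiR-187 was also lost without 7 libraries of other stages: deviation 1 (0.0542) and 4 (0.0544), postdeviation 1 and 3 (0.0549), 2 (0.0515) and 4 (0.0521) and impending ovulation 1 (0.0522). Without both preovulatory 1 and 4, 5 passed, all of them higher: miR-485-3p, miR-323-3p, miR-22, miR-483 and miR-92a (0.0126 to 0.0157).

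Placed along the 5 stages, the called miRNAs had postdeviation means on the preovulatory side of predeviation. MiR-92a averaged 3036, 4816, 6627, 8030 and 8537 scaled reads from predeviation to impending ovulation, a step up at every stage. MiR-148a averaged 409806, 277969, 206178, 152965 and 169839, and miR-146b-5p 2884, 1593, 936, 917 and 926. MiR-483 was highest at postdeviation, with 42.5, 262, 963, 673 and 575, and so was miR-22, with 6838, 13851, 25804, 15669 and 19755. MiR-200c had its lowest means in the middle, at 1419, 641, 272, 309 and 1172, and miR-200b likewise at 3185, 1712, 1118, 1135 and 2496. The comparisons of postdeviation and of impending ovulation with predeviation share the predeviation libraries with this one, so the difference between them was tested directly.

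**Figure D3:**
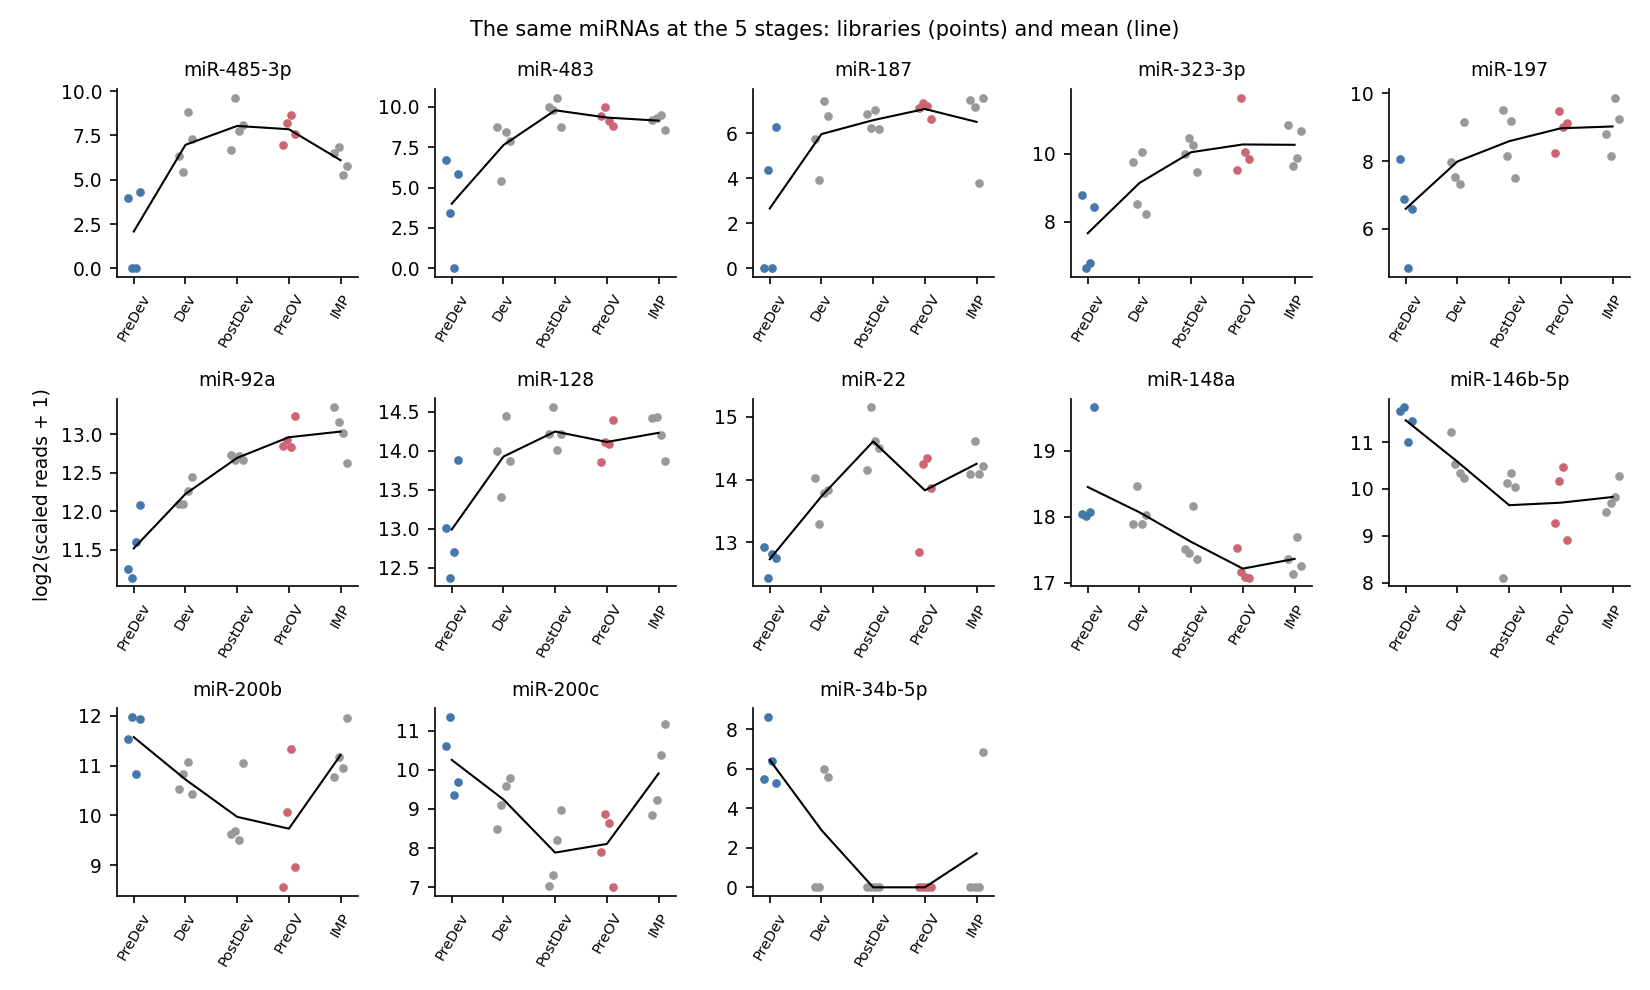
Log2(scaled reads + 1) of the 13 called miRNAs at the 5 stages, with 1 point per library (predeviation blue, preovulatory red, others grey) and a line through the means of their log2 values; each panel has its own vertical range. MiR-92a rises at each stage, miR-148a falls up to preovulatory, and miR-200b and miR-200c are lowest at postdeviation or preovulatory and higher again at impending ovulation.

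Between preovulatory and postdeviation 0 of the 227 miRNAs (0%) passed in limma, with 30 at an unadjusted p under 0.05 and a lowest adjusted p of 0.274; edgeR under both scalings and DESeq2 also called 0. The log2 differences of the 13 ran from -0.78 (miR-22, interval -1.42 to -0.14, limma adjusted p = 0.310) to 0.50 (miR-187, 0.899). The smallest p belonged to miR-101, at 2841 ± 960 at preovulatory against 1047 ± 501 at postdeviation (log2 1.5 ± 0.47, limma adjusted p = 0.274), and miR-192 and miR-215, liver and gut miRNAs with a common seed, were lower than at postdeviation by fitted log2 values of -0.87 (0.288) and -1.04 (0.274). Between impending ovulation and preovulatory limma likewise called 0 (0%), with 25 at an unadjusted p under 0.05 and a lowest adjusted p of 0.121; edgeR called 0 and DESeq2 called miR-182, miR-200c, miR-204b and miR-96 as higher at impending ovulation. MiR-200c there had a limma log2 difference of 1.80 ± 0.60 (adjusted p = 0.174) and miR-200b of 1.48 ± 0.49 (0.174). MiR-340-5p was at 1185, 544, 913 and 922 at preovulatory and at 89.5, 85.5, 165 and 393 at impending ovulation. Its groups were apart (log2 -2.51 ± 0.64, limma adjusted p = 0.121), and it passed without predeviation 4 (0.0458) or without impending ovulation 4 (0.0202). The latter omission also passed miR-126-5p (0.0202) and miR-23b (0.0260), and without preovulatory 3 miR-200b passed as higher at impending ovulation (0.0486).

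Grouped by family or locus, the highest median log2 change was that of the miR-17-92 cluster and paralogs, at 1.07 over 11 members, of which 9 had higher fitted values (108 of all 227 did) and 1, miR-92a, passed. In several of its other members preovulatory 1 and 4 were far above the other 2. MiR-17 was at 2786, 103, 183 and 1971 scaled reads in preovulatory 1 to 4 against 110 to 372 at predeviation (limma adjusted p = 0.465). MiR-20a was at 4649, 265, 219 and 3371 against 302 to 539 (0.516), and miR-363 at 1136, 29.4, 36.5 and 781 against 0 to 225 (0.398). Without these libraries the median of the list was -0.44, with 4 of 11 members higher. MiR-92a was as high in preovulatory 2 and 3 as in preovulatory 1, and so did not follow this split. The miR-15-16 and miR-103-107 families had 6 of 7 fitted values above 0, a median of 0.85 (0.06 without the pair) and 0 calls.

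The remaining family lists held 1 lower and 1 higher call in all. Medians were 0.33 for the let-7 family (7 members, 0 calls), 0.12 for the miR-30 family (4, 0 calls), 0.65 for the miR-29 family (3, 0 calls), 0.50 for the miR-181 family (2, 0 calls) and 0.18 for the group of miR-26 and miR-148 (4, miR-148a lower). They were -0.12 for the miR-23-27-24 clusters (5, 0 calls), -0.32 for the miR-99-100-125-10 group (8, 0 calls), -0.23 for the X-linked miR-424 cluster (5, 0 calls), -1.18 for miR-221 and miR-222 (2, 0 calls) and -1.80 for the miR-183 cluster (3, 0 calls). The IGF2 and HOX loci had a median of 0.63 with miR-483 as the single call among 6. MiR-221, which represses the cell cycle inhibitor p27, was at 1906 ± 592 and 751 ± 334 (limma adjusted p = 0.0860), and miR-182 of the miR-183 cluster at 905 ± 534 and 248 ± 135 (0.0814). With equal library totals the medians of the DLK1-DIO3, miR-23-27-24, miR-99-100-125-10, miR-424, red blood cell and muscle lists turned above 0 (0.01 to 0.35). Leaving out preovulatory 1 and 4 turned the medians of the miR-181 family (-0.11), the group of miR-26 and miR-148 (-0.10), and the neural and endocrine markers (-0.17) below 0, and those of the red blood cell (0.85), leukocyte (0.03) and muscle (0.79) markers above 0. The median of the miR-29 family was -0.63 with edgeR (-0.49 with TMM), -0.66 with DESeq2 and -0.07 with a pseudocount of 10, and that of the IGF2 and HOX loci was -0.06 with edgeR on the deposited scale, -0.02 with DESeq2, -0.31 with array weights and -0.22 among miRNAs detected in all 8 libraries. That of the miR-30 family was -0.00073 with quantile normalization, that of the muscle markers was 0.01 to 0.14 with edgeR and DESeq2, and that of the DLK1-DIO3 locus was above 0 in 6 settings (0.0062 to 0.40).

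**Figure D4:**
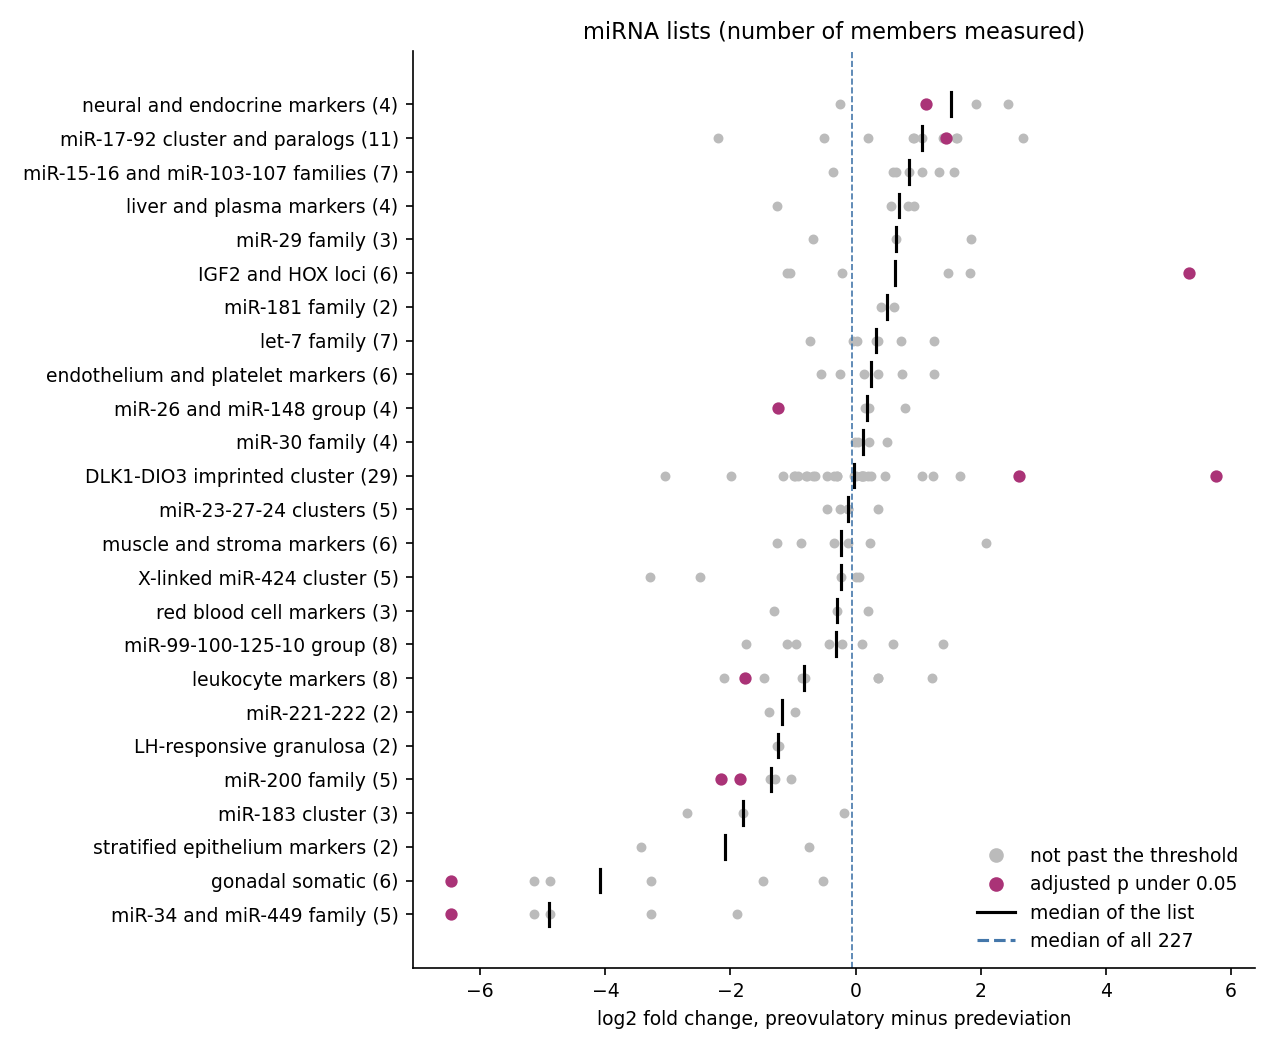
Log2 fold changes (preovulatory minus predeviation) of the members of each list with at least 2 measured, past the threshold in purple and otherwise grey, with the list's median as a black bar and the median of all 227 miRNAs (-0.06) as a dashed line. The miR-34 and miR-449 and the gonadal somatic lists, which share members, lie farthest to the left, and neural and endocrine markers and the miR-17-92 list farthest to the right.

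Markers of cells and tissues that could feed the fluid were covered by 9 lists with measured members, of which 3 held a call. LH raises miR-21 and miR-132 in granulosa cells, and miR-21 was at 216708, 194377, 321671 and 46810 scaled reads at predeviation and at 30344, 109323, 216068 and 27871 at preovulatory. The groups overlapped widely (log2 -1.25 ± 0.74, limma adjusted p = 0.465). MiR-132 had near-equal means of 66.4 and 61.2, with 0 in preovulatory 2 (log2 -1.22 ± 1.71, limma adjusted p = 0.854). The median of the list of 2 was -1.24. The gonadal somatic list had a median of -4.08 and 1 call of 6, miR-34b-5p. Its members are mostly of the miR-34 and miR-449 family, so this median and call largely repeat those of that family. Outside the family miR-378 was at 10869 and 7964 (limma adjusted p = 0.411) and miR-224 at 62.4 and 56.4 (0.751). Leukocyte markers had a median of -0.83 with 1 lower call, miR-146b-5p, of 8, and summed to 2843 to 7994 at preovulatory against 7900 to 10363 at predeviation. Most of that sum was miR-146a (means 3333 and 5620) and miR-146b-5p (917 and 2884). Fitted values were also lower for miR-142-5p (log2 -1.47), miR-150 (-0.86) and miR-146b-3p (-2.1). They were higher for miR-142-3p (1.22), miR-223 (0.37) and miR-155 (0.36), the last at 621 against 362 (limma adjusted p = 0.890). The part of leukocytes in the lower miR-146b-5p was not tested. Red blood cell markers had a median of -0.30 and 0 calls of 3, and miR-486-5p reached 66743 in preovulatory 2 against 7207 to 17266 in the other 3 libraries of that stage. Their sums were 7643 to 73092 at preovulatory and 12435 to 27037 at predeviation.

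Liver and plasma markers had a median of 0.70 and 0 calls of 4. MiR-192 was at 20580, 14041, 32382 and 52559 at predeviation and at 40377, 49488, 48113 and 67517 at preovulatory. Predeviation 4 lay above 3 of the 4 preovulatory libraries, and the log2 change of 0.93 ± 0.31 did not pass (limma adjusted p = 0.0860), though it did without predeviation 4 (log2 1.26, adjusted p = 0.00389) and with equal library totals (1.41, 0.00179). The liver miRNA miR-122 was at 6774 and 7766 (0.677). Endothelium and platelet markers (median 0.25, 6 members), muscle and stroma markers (-0.23, 6) and stratified epithelium markers (-2.08, 2) had 0 calls. Of these, the skeletal-muscle miR-206 was at 339 ± 345 and 1122 ± 595 (limma adjusted p = 0.192) and the smooth-muscle miR-143 at 44643 ± 34097 and 16705 ± 10319 (0.384). Neural and endocrine markers had a median of 1.53 and 1 call of 4, miR-128.

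The preovulatory libraries also differed among themselves. Among the 60 miRNAs detected in all 8 libraries with a mean of at least 1000 scaled reads, chosen after their values were seen, miR-218 had the widest preovulatory range. It was at 50254, 397, 475 and 33875 in preovulatory 1 to 4, a 127-fold range, and at 280, 676, 165 and 2779 at predeviation. Preovulatory 1 and 4 exceeded each of the 16 libraries of other stages, whose highest value was 8030 (log2 2.96 ± 1.54, limma adjusted p = 0.384). The neural and endocrine miR-9a was at 16242, 176, 256 and 11303 and the neuroendocrine miR-7 at 32836, 1146, 1387 and 22635, with the same pair high. Unlike for miR-218, the 16 libraries of other stages reached higher values, up to 28044 for miR-9a and 33480 for miR-7. The range of miR-9a was 92.1-fold at preovulatory and 65.8-fold at predeviation, and that of miR-7 was 28.6-fold and 4.8-fold. MiR-21, miR-200a and miR-200b were low in preovulatory 1 and 4. The muscle miRNA miR-1 was high in preovulatory 3 alone (817, 1587, 14821 and 528). Over the 138 miRNAs detected in all 8 libraries, the SD of log2 values was wider at preovulatory for 60, and its median was 0.67 at preovulatory and 0.79 at predeviation.

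**Figure D5:**
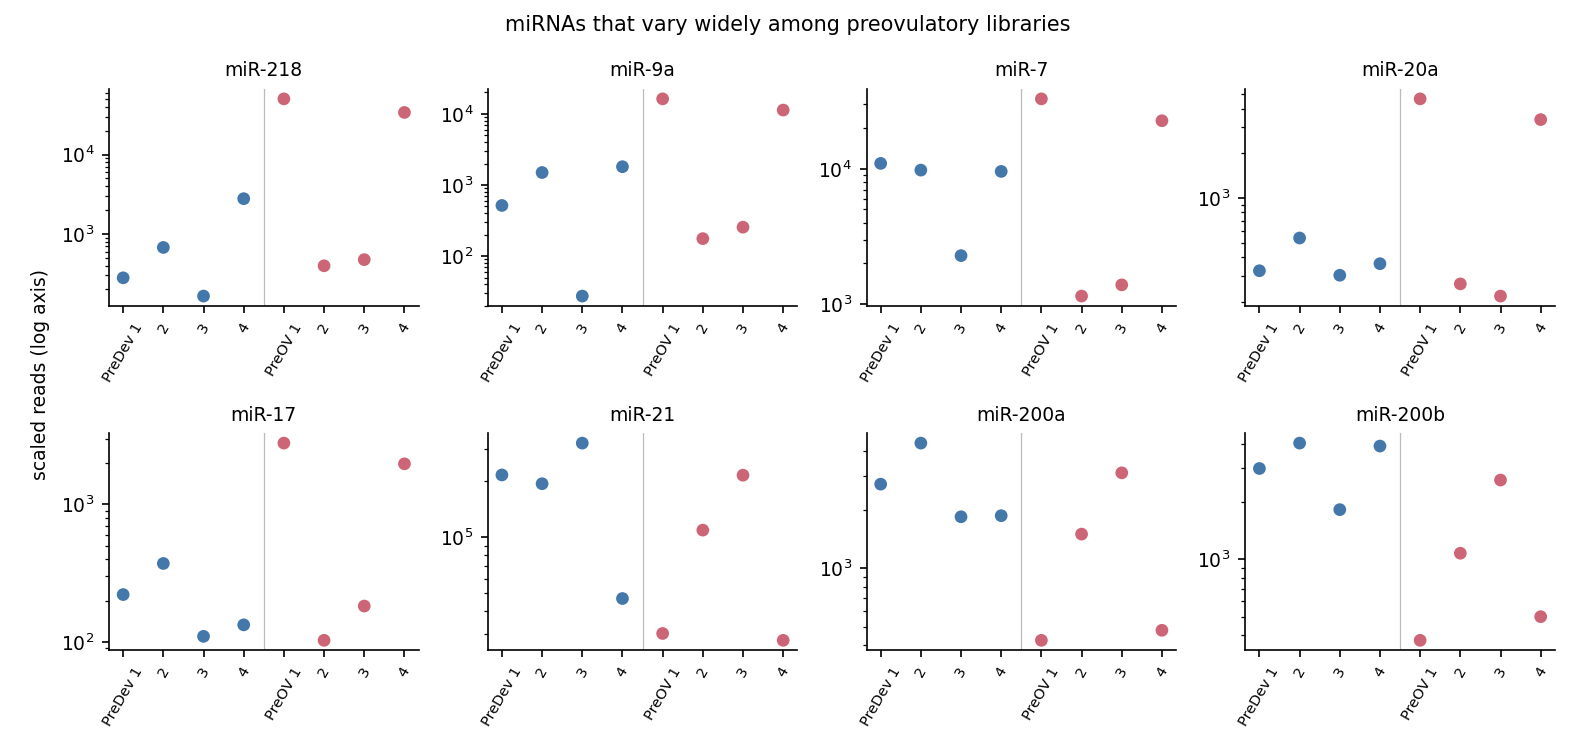
Scaled reads on a log axis of 8 miRNAs in predeviation libraries 1 to 4 (blue) and preovulatory libraries 1 to 4 (red), with 1 point per library. In miR-218, miR-9a, miR-7, miR-20a and miR-17 preovulatory 1 and 4 are high and 2 and 3 low, and in miR-21, miR-200a and miR-200b the same pair is low.

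Of the 10 most abundant miRNAs over the 8 libraries, miR-148a was the only one past the threshold. MiR-99a, a member of a group that restrains mTOR signalling, was at 89667 ± 17411 and 71623 ± 36282 (SD, n = 4; log2 -0.42, interval -1.20 to 0.36, limma adjusted p = 0.679), with preovulatory 1 the highest of the 8. From the HOX clusters, miR-10a was at 60677 ± 22684 and 32691 ± 21095 (log2 -1.10 ± 0.41, limma adjusted p = 0.142) and miR-10b at 66218 ± 44751 and 49762 ± 16646 (log2 -0.22, 0.890). MiR-423-5p was at 33408 ± 12732 and 39955 ± 10491 (0.709), and let-7g at 18603 ± 5039 and 17989 ± 4260 (0.974). For miR-423-5p the interval of the log2 change was -0.27 to 0.83 and for let-7g -0.76 to 0.67, and neither interval excludes 0.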

How the data were processed

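Small RNA libraries of vesicles from follicular fluid (TruSeq Small RNA kit, per the labels' protocols) were compared between the 4 preovulatory and the 4 predeviation libraries. Although the authors call the deposited table CPM, its unit is a signal in scaled reads: columns do not share a total, and 100% of the values in 18 columns were whole multiples, within 1e-06, of the smallest value in the column. Bowtie2 2.2.2, DESeq2, bcl2fastq and EquCab3.0 are named in the submitters' processing notes; the counting and the scaling factor are not given in the sources used here. No sequence reference was used, so no sequences are shown and the planned grouping by seed was not made.

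Values were taken as log2(value + 1) and tested in limma 3.58.1 (R 4.3.3), allowing for an intensity trend, with all 20 libraries and a mean per stage, two-sided, with Benjamini-Hochberg adjustment over the 227 miRNAs and a threshold of 0.05. The design had assumed CPM or scaled reads, and the test was kept. Alternatives were edgeR 4.0.16 quasi-likelihood and DESeq2 1.42.0 on recovered reads of 18 libraries (postdeviation 2 and impending ovulation 1 had under 100 low values, too few to check), other pseudocounts, filters, scalings and left-out libraries. Intervals (95%) of log2 changes come from limma and the spread between libraries; those called counting intervals and the floor (3 reads) cover counting error only, as reads carry no molecular identifiers. With 19 mares and 20 libraries at least 1 mare gave more than 1 library, which ones is not labelled, and p-values reflect only how far these samples spread.

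Named miRNAs were those past the threshold (up to 12 rises and 12 falls), the 10 most abundant, up to 4 members of each of 26 lists, any miRNA at 0 in 1 stage and above 0 in all of the other, and up to 8 with the smallest p in each of the other 2 contrasts. The hypoxia list had 0 names in the table. Of 227 members, 19 were detected in exactly 4 libraries (highest mean 70.8), and 75 names detected in fewer were left out; the highest mean among those detected in 3 was 67.2. Members, lists and tests were chosen with earlier results of these data known.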

Additional observations from a re-analysis of the deposited data

Results flagged for a closer look

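In 34 groups of 4 libraries (the 13 called miRNAs and 4 library measures at both stages), a library far from the other 3 appeared 5 times. For normally distributed values the rule flags about 1 in 20 groups, but the miRNA values were scaled reads without a log transformation. The groups are also not independent, since miR-148a made up 46.6% of the sum of predeviation 4. The 5 flags therefore cannot be set against that rate. Predeviation 4 had 828709 scaled reads of miR-148a against 264904 to 276040 in the other 3, and a sum of values of 1778180 against 1078320 to 1136930. Preovulatory 1 had 188836 of miR-148a against 137680 to 145935. Preovulatory 2 had 3204 scaled reads of miR-323-3p against 735 to 1059, and predeviation 2 had 401 of miR-34b-5p against 38.1 to 82.5.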

How the results depend on the processing

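The count of miRNAs past the threshold between preovulatory and predeviation (13) stayed within 1.5 times in most settings. It was 1 with only the 2 stages in the fit (miR-34c, lower, with none of the 13), 5 without the intensity trend, 5 with the replicate block, 41 with array weights (21 higher, 20 lower), 21 with DESeq2 (12 higher, 9 lower) and 5 without preovulatory 1 and 4, a setting chosen after seeing the data. Leaving out 1 library gave 4 to 17. The cause was not tested, and fits with fewer libraries also have fewer degrees of freedom. Between preovulatory and postdeviation 0 passed, but 4 with array weights, and 0 to 0 without single libraries. Between impending ovulation and preovulatory 0 passed, but 8 with array weights and 4 with DESeq2, and 0 to 3 without single libraries. Replicate numbers gave no sign of pairing (r of same-numbered libraries -0.19 to 0.03, 0 of 4 over 0.1), so the block result describes shared numbers only. No called miRNA changed direction in any setting. Depth limits the scarce miRNAs, since 1 read in preovulatory 3 is worth 36.5 scaled reads.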
